A study of Mus musculus with 10 samples.

Results

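Cells put forward as leptotene and zygotene spermatocytes, the first stages of meiotic prophase, were picked by transcript from the testes of mice that lack the chromatin remodeler SMARCA5 in germ cells. A barcode was taken when 5 marker genes, Rad51ap2, Gml, Gml2, Meiob and Mnd1, summed to at least 4 unique molecular identifiers (UMIs, which count captured transcripts). It also had to hold at most 1 UMI of Stra8, a gene of meiotic entry, at most 1 of Piwil1, a gene of pachytene and later, and at most 1 of the Sertoli genes Cst9 and Cst12 together. The rule selected 260 of 8098 filtered barcodes in sample 1 and 604 of 14262 in sample 2. The share was 3.21% in sample 1 (exact Clopper-Pearson 95% interval 2.84 to 3.62%) and 4.24% in sample 2 (3.91 to 4.58%), so the samples' intervals did not overlap. These intervals and those below cover counting error only.

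Both single-cell samples are dissociated whole testis of Smarca5 fl/delta; Ddx4-Cre+ mice, called cKO here, in which Cre under the germ cell gene Ddx4 acts on 1 floxed and 1 deleted Smarca5 allele. No wild type single-cell sample was analysed here, so nothing below compares genotypes in these cells, and the labels used here give no age and do not say that the samples came from separate animals. Chromatin accessibility came from 8 libraries of sorted cells: cKIT+ cells of wild type C57BL6 and of cKO, and cells with 4C DNA content, labelled pachytene spermatocytes, of wild type C57BL6 and of cKO, with 2 libraries in each of the 4 groups.

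Meiotic prophase opens with leptotene, when SPO11 breaks the DNA and the chromosome axis forms, and goes on to zygotene, when broken ends search for the homologous chromosome and the synaptonemal complex starts to join the homologues. In pachytene the homologues are fully joined, the X and Y chromosomes are silenced, and genes of later sperm formation come on. MEIOB binds single-stranded DNA at breaks, MND1 works with the strand exchange protein DMC1, Rad51ap2 is a gene of meiotic cells, and Gml and Gml2 are neighbouring genes of the Ly6 family.

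The filtered barcodes of samples 1 and 2 had medians of 3856.5 and 4581 UMIs. The selected cells had 3946 and 3477.5, Stra8-high cells 3585 and 4456, and early pachytene cells 10062 and 11681. Stra8-high cells (34 and 67 barcodes) held at least 4 Stra8 UMIs, and early pachytene cells (771 and 809) at least 4 Piwil1 UMIs with at most 1 each of Ccna1, Acrv1 and Stra8. A caller of doublets, droplets with more than 1 cell, marked 12.7% and 10.4% of the selected cells, against 8.46% and 9.32% of all filtered barcodes. 32 barcode sequences occurred in both samples. Sample 1 also listed 15453 barcodes of 10 to 100 UMIs, whose pooled transcripts are called free RNA below. Smarca5 itself stood at 117 and 140 CPM in the selected cells, where CPM is a gene's UMIs scaled to an equal total in every group. Which exons the deletion removes is not given in the sources used here, and a 3′ tag outside them does not check the deletion.

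The 5 marker genes chose the cells, so their levels are a description. Gml gave 46.3% and 41.0% of the marker UMIs, Gml2 25.7% and 25.6%, Meiob 11.3% and 11.6%, Rad51ap2 8.46% and 12.9%, and Mnd1 8.25% and 8.90%. The marker sum had a median of 6 in sample 1 and 7 in sample 2 and a maximum of 23 and 41. At least 3 of the 5 genes were detected in 92, 57 and 20 cells (3, 4 and 5 genes) of sample 1 and in 205, 157 and 76 of sample 2. Gml reads were not particular to these cells. Gml stood at 687 and 619 CPM in the selected cells, at 240 and 175 CPM in early pachytene cells, and at 0 and 34.3 CPM in Stra8-high cells. The rule's limit on Piwil1 removed 686 of 1000 barcodes with a marker sum of 4 or more in sample 1, and 626 of 1340 in sample 2. At the threshold, barcodes with a marker sum of 4 (54 and 134) had Sycp3 at 1445 and 1216 CPM, and those with a sum of 3 (99 and 241) had 814 and 944 CPM.

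**Figure D1:**
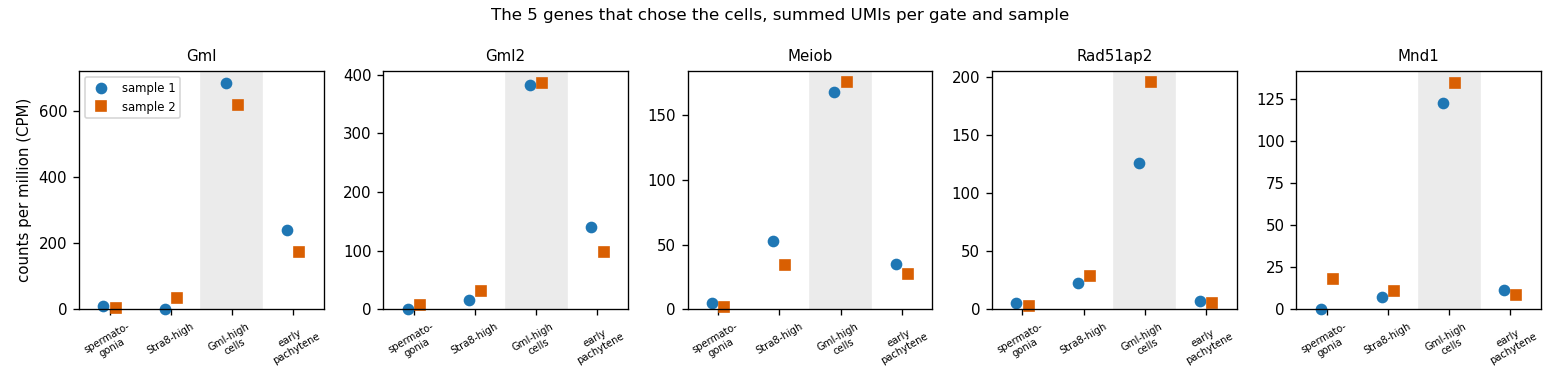
CPM of the 5 marker genes (vertical axes) in 4 groups of barcodes, with 1 point per sample. Spermatogonia are barcodes chosen on Sohlh1, Uchl1, Crabp1 and Rhox13. The grey band marks the selected cells (Gml-high cells on the axis), which the same genes chose, and Gml in early pachytene cells stands at 240 and 175 CPM.

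Mnd1 lies on chromosome 3 (84087933 to 84155798, build GRCm38.p6), Rad51ap2 on chromosome 12 (11456023 to 11463153), Meiob on chromosome 17 (24804301 to 24839788), Gml on chromosome 15 (74813434 to 74820049) and Gml2 beside it (74818941 to 74846148). The annotated spans of Gml and Gml2 share 1109 bases and the genes are alike, so reads of one may be counted for the other. Promoters of Mnd1 and Rad51ap2, from RefSeq (GRCm38.p6), are shown because a peak of accessible chromatin lay within 500 bases of both starts in all 8 libraries. Each runs from 250 bases before to 50 bases after the start that the promoter table uses, which is not the outer end of the gene span given above, chr3:84155737-84156036 on the minus strand and chr12:11455805-11456104 on the plus strand, and capitals mark the letters GGGCGG, the GC box, read on either strand.
Mnd1: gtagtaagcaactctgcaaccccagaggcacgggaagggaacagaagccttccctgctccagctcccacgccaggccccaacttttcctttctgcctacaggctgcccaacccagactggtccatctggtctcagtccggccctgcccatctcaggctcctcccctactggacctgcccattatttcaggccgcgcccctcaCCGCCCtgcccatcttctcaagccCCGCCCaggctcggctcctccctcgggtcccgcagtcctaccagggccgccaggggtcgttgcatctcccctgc
Rad51ap2: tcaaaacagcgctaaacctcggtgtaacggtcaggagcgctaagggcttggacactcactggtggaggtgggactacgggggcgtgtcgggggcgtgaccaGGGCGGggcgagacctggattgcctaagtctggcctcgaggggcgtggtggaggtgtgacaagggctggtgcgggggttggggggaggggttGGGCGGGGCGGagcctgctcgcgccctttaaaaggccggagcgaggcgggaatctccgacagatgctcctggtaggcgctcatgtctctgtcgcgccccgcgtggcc

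The Mnd1 promoter holds GGGCGG 2 times and the Rad51ap2 promoter 3 times, and 35.7% of 32851 annotated promoters of the same length hold it at least once. Of the 12811 genes with an annotated start that were tested for expression below, 58.4% hold it, 10.9% hold CNCCTCAG and 10.6% hold CACGTG. Neither window holds CNCCTCAG, letters of a motif described for the STRA8 protein (7.94% of promoters), or CACGTG, the E-box bound by many helix-loop-helix factors (7.15%). Their G and C content was 65% and 67% and they held 12 and 26 CpG pairs, against medians of 52.7% and 7 over all promoters. Peak height is the authors' fold enrichment over local background. At Mnd1 it ran from 6.55 to 11.1 in the 2 cKIT+ wild type libraries, 9.86 to 12.7 in cKIT+ cKO, 9.81 to 10.6 in 4C wild type and 8.84 to 9.18 in 4C cKO. At Rad51ap2 it ran from 7.07 to 10.99, 10.4 to 10.8, 7.07 to 7.90 and 6.70 to 7.76 in the same order. Wild type and cKO ranges overlapped for both genes in the cKIT+ libraries, and for Rad51ap2 in the 4C libraries. At Mnd1 in the 4C libraries they did not overlap, and no exact test of 2 against 2 libraries can pass a threshold of 0.05. Meiob had a peak within 500 bases of its lower annotated end in all 8 libraries (fold 5.94 to 8.60). Where Gml and Gml2 adjoin, within 500 bases of the upper end of Gml, a peak of fold 3.39 to 3.58 was called in all 4 4C libraries. In the cKIT+ libraries it was called in 1 of 2 wild type (fold 3.81) and in both cKO libraries (3.42 and 6.08).

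The label of leptotene and zygotene was held by part of the genes outside the rule and not by others. Several axis and synaptonemal complex genes were high. Sycp3, an axis protein, stood at 1814 and 2064 CPM in the selected cells, 856 and 818 CPM in Stra8-high cells and 888 and 685 CPM in early pachytene cells. Most break genes and Dmc1 were low, though not Spo11. Dmc1, which encodes the meiotic strand exchange protein that acts on breaks, stood at 29.6 and 55.9 CPM against 263 and 203 CPM in Stra8-high cells. Genes known from pachytene were high: Hspa2, a testis heat shock protein, stood at 1188 and 973 CPM against 82.6 and 264 CPM in Stra8-high cells. Of 10 tested genes known from leptotene or zygotene, Sycp1, Sycp3, Hormad1, Tex101 and Tesmin were higher than in Stra8-high cells and Dmc1 and Prdm9 were lower, beside 13.7% higher and 11% lower over all genes. Against early pachytene cells 7 were higher and none lower, beside 23.6% and 21.3%. There 2 of the 10, Dmc1 and Ccnb3, were higher among barcodes of 2000 to 10000 UMIs. When cells were chosen and counted on separate parts of their UMIs, 4 were higher. These tests are described below. The leptotene part of the label was therefore not borne out by most break genes. The selected cells are called Gml-high cells below, after the marker with the largest share of their marker UMIs (46.3% and 41.0%). Gml was detected in 243 of 260 and 524 of 604 Gml-high cells and Meiob in 125 and 330. The name does not set them apart from early pachytene cells, of which 613 of 771 and 491 of 809 also held Gml.

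Against Stra8-high cells, 4298 of 17424 genes differed (24.7%), of which 2390 were higher in Gml-high cells (13.7%) and 1908 lower (11%), by edgeR's quasi-likelihood test on UMIs summed per sample with the sample as a block and a Benjamini-Hochberg adjusted p under 0.05. The median difference over all genes was 0.27 on the log2 scale. Of the genes of premeiotic S phase 10 of 16 were lower, and of break formation 7 of 10. All 14 pachytene genes, 11 of 15 piRNA genes and 8 of 16 axis genes were higher. The genes that defined any of the groups were not tested. Of the limits, the 2 samples allow no test without both of them, and 3662 genes were higher when called doublets were left out.

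Of 10 tested genes of break formation, 7 were lower than in Stra8-high cells and 2 were higher, with a median of -2.27. Mei1, needed for breaks, stood at 3.90 and 2.96 CPM in Gml-high cells against 225 and 81.8 CPM (log2 difference -4.83, SE 0.44, edgeR adjusted p = 5.74e-13). Mei4, which binds the axis where breaks form, stood at 2.34 and 2.96 against 105 and 47.5 CPM (-4.13, SE 0.57, adjusted p = 8.06e-08). Its partner Rec114 stood at 10.9 and 6.21 against 120 and 68.6 CPM, and Gm960 at 6.24 and 12.4 against 82.6 and 58.1 CPM. Prdm9, which marks the hotspots where breaks fall, stood at 16.4 and 10.0 against 165 and 63.4 CPM (-2.55, SE 0.39, adjusted p = 7.71e-07). In each of these genes both samples of Gml-high cells lay below both samples of Stra8-high cells. Spo11, the enzyme that cuts, went the other way, at 120 and 81.0 CPM against 22.5 and 13.2 CPM (2.95, SE 0.45, adjusted p = 7.32e-07). Hormad1, an axis protein listed with break formation as well, was the other gene that was higher.

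Strand exchange genes split in the same comparison, with 4 higher and 5 lower of 19 tested and a median of -0.46. Dmc1 was lower by 1.91 on the log2 scale (SE 0.29, edgeR adjusted p = 5.59e-07), Brca2 stood at 80.3 and 60.9 CPM against 368 and 145 CPM, and Brca1 at 17.2 and 15.1 against 203 and 52.8 CPM. All of these passed the test. Psmc3ip, which encodes HOP2, the partner of MND1, stood at 473 and 608 CPM against 105 and 251 CPM (1.93, SE 0.32, adjusted p = 4.25e-06), so this partner was higher while the recombinase gene Dmc1 was lower. Hsf2bp, a partner of BRCA2, was also higher, at 110 and 117 against 75.1 and 81.8 CPM (0.90, SE 0.31, adjusted p = 0.0244).

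Among 16 tested genes of the axis, the synaptonemal complex and the HORMA proteins, 8 were higher than in Stra8-high cells and 3 lower, with a median of 0.52. Sycp3 was higher by 1.64 (SE 0.30, edgeR adjusted p = 2.84e-05). Sycp1, the transverse filament that zips homologues together, stood at 1904 and 1338 CPM against 1149 and 591 CPM (1.41, SE 0.30, adjusted p = 0.000224). Hormad1, which marks unjoined axes, stood at 969 and 875 CPM against 413 and 317 CPM (1.78, SE 0.28, adjusted p = 1.3e-06), and Syce3, of the central element, at 352 and 388 CPM against 143 and 201 CPM. Sycp2, Syce1, Hormad2 and Meikin made up the rest of the higher genes. The 3 lower genes were the meiotic cohesins Rec8 (3.90 and 5.91 against 22.5 and 26.4 CPM) and Rad21l (0.780 and 6.80 against 45.0 and 34.3 CPM), and Trip13, the enzyme that removes HORMA proteins (26.5 and 21.3 against 113 and 58.1 CPM).

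Crossover genes split as well, with 4 higher and 3 lower of 14. Over all genes 13.7% were higher and 11% lower, and no list of this paragraph was tested as a set. Tex15, needed for repair of meiotic breaks, stood at 37.4 and 48.5 CPM against 908 and 351 CPM (-3.15, SE 0.26, edgeR adjusted p = 1.79e-14), and Tex11, an X-linked gene of crossover formation, stood at 15.6 and 18.9 against 338 and 124 CPM. Cntd1, needed to complete crossovers in pachytene, stood at 223 and 182 CPM against 37.5 and 31.7 CPM (2.93, SE 0.36, adjusted p = 5.48e-09). Mlh3, Msh4 and Ccnb1ip1 were the other higher genes. Of 8 genes of telomere attachment, Ccdc155 and Spdya were higher and 6 did not pass. Among 16 regulators of meiotic entry and progress, Rbm46, Hsf5, Zfp541, Kctd19, Tcfl5 and Mybl1 were higher and Gm4969, Mga and E2f6 lower. In the list of p53, checkpoint and apoptosis genes, 3 of 14 were higher (Trp63, Mdc1 and H2afx) and 5 lower, Bax, Chek1, Chek2 and Atm among them.

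In the list of replication and premeiotic S phase, 10 of 16 genes were lower and Pcna was higher, with a median of -2.28. Rrm2, which supplies nucleotides for replication, stood at 4.68 and 4.14 CPM against 75.1 and 60.7 CPM (-3.52, SE 0.49, edgeR adjusted p = 1.09e-07). Mcm2, of the replicative helicase, had 3 UMIs in all Gml-high cells against 29 in Stra8-high cells, 88.1-fold lower per UMI (95% counting interval 27.3 to 452). The list of the mitotic cycle had 5 lower and 2 higher of 12: Ccna2 stood at 1.56 and 3.84 against 113 and 81.8 CPM, and Cdk1 and Ccnb2, whose products drive entry into division, were higher, Cdk1 at 154 and 189 against 22.5 and 71.3 CPM. Spermatogonial genes were lower in 6 of 9 tested, among them Kit at 3.90 and 5.02 against 105 and 44.9 CPM and Dmrt1, a factor that holds back meiosis, at 0.780 and 2.36 against 218 and 129 CPM (-5.90, SE 0.48, adjusted p = 1.79e-14). Csnk1e, Erg and Sall4 gave no UMI in any Gml-high cell. Against a floor of 3 UMIs over both samples, they were at least 72.9-fold, 72.9-fold and 63.8-fold lower than in Stra8-high cells.

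All 14 tested genes of the pachytene and diplotene list were higher than in Stra8-high cells, with a median of 1.78. Ldhc, the sperm lactate dehydrogenase, stood at 3926 and 4246 CPM against 661 and 1872 CPM (2.17, SE 0.44, edgeR adjusted p = 0.000123), and Hspa2 was higher by 2.83 (SE 0.37, adjusted p = 3.07e-08). In the piRNA pathway, which silences transposons in germ cells with small RNAs, 11 of 15 were higher and 4 did not pass, with a median of 1.37. Mael stood at 749 and 543 against 203 and 335 CPM, and Mov10l1 at 328 and 340 against 240 and 129 CPM. H2afx, the histone that is phosphorylated at breaks and on the silenced X and Y, stood at 293 and 395 CPM against 45.0 and 106 CPM (2.45, SE 0.30, adjusted p = 6.66e-09). Atm, the kinase that acts on it at breaks, stood at 11.7 and 7.68 CPM against 285 and 108 CPM (-3.75, SE 0.36, adjusted p = 5.16e-12). Ldhc and Hspa2 were also abundant in free RNA, at 6243 and 963 CPM, and the part of free RNA in these levels was not tested.

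**Figure D2:**
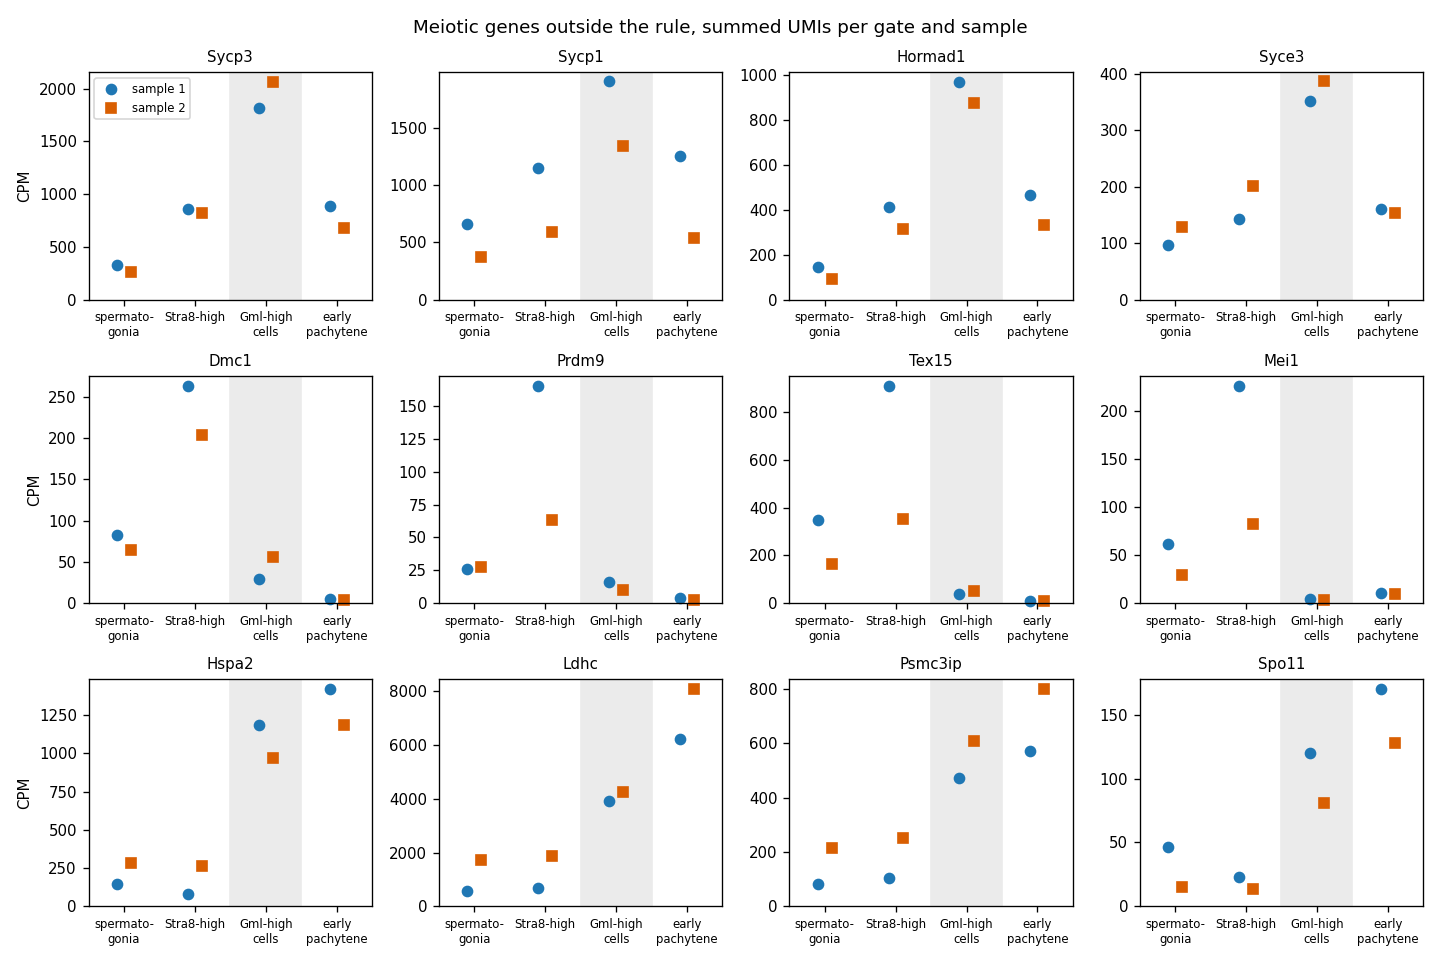
CPM of 12 meiotic genes that the rule did not use (vertical axes, each from 0), in spermatogonia, Stra8-high, Gml-high (grey band) and early pachytene cells, with 1 point per sample. Sycp3, Sycp1, Hormad1 and Syce3 are highest in Gml-high cells, Dmc1, Prdm9, Tex15 and Mei1 in Stra8-high cells, and Ldhc stands at 3926 and 4246 CPM, between its neighbours.

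The 10 genes with the greatest rise over Stra8-high cells were 1700009C05Rik, Ttc28, Lypd10, 1700102P08Rik, Gm10505, Wdr93, Elfn2, Gm13817, Stambp and D130017N08Rik. Lypd10, a gene of the same Ly6 and uPAR protein class as Gml, stood at 169 and 194 CPM against 7.51 and 7.92 CPM (4.97, SE 0.50, edgeR adjusted p = 2.02e-11). Gm10505 stood at 160 and 251 CPM against 7.51 and 10.6 CPM. Most of these genes were not highest in Gml-high cells. All but Gm10505 and 1700102P08Rik stood higher still in early pachytene cells in both samples, with Lypd10 at 217 and 318 CPM there. In early pachytene cells Gm10505 was lower, at 150 and 157 CPM. There 1700102P08Rik stood at 445 and 422 CPM, beside 449 and 370 CPM in Gml-high cells. For 7 of the 10 the Stra8-high cells held 1 to 3 UMIs, so their ratios are loose: 1700009C05Rik was 50.7-fold higher with a 95% counting interval of 9.05 to 2007.

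Against early pachytene cells, 4116 of 17424 genes were higher in Gml-high cells (23.6%) and 3704 lower (21.3%), 44.9% in all, by the same fit. Of the axis genes 9 of 16 were higher and 2 lower, of the pachytene genes 1 of 14 was higher and 5 lower, and 425 of 545 X-linked genes were higher. The median difference over all genes was -0.01. Early pachytene cells held more UMIs per cell. Among barcodes of 2000 to 10000 UMIs the counts were 879 higher and 967 lower of 14003 tested. Within those limits median depth still differed, at 4129 and 3553 UMIs in Gml-high cells and 7896 and 5247.5 in early pachytene cells.

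Of the 16 axis genes, 9 were higher than in early pachytene cells and 2 were lower, with a median of 0.65. Sycp3 was higher by 1.03 (SE 0.29, edgeR adjusted p = 0.00262), Hormad1 by 0.94 (SE 0.24, adjusted p = 0.00125) and Syce2, of the central element, by 1.76 (334 and 413 against 98.3 and 78.9 CPM, SE 0.26, adjusted p = 7.3e-08). Rec8 and Rad21l, lower than in Stra8-high cells, were higher here, with Rec8 at 0.483 and 0.576 CPM in early pachytene cells. Among barcodes of 2000 to 10000 UMIs, Syce2, Syce3 and Rad21l of this list passed and Sycp3 and Hormad1 did not. Sycp3 and Hormad1 also did not pass without the sample as a block, or when cells were chosen and counted on separate parts of their UMIs. Dmc1 was higher by 3.07 (4.83 and 4.03 CPM in early pachytene cells, SE 0.29, adjusted p = 2.97e-13), and passed among barcodes of 2000 to 10000 UMIs too. Tex15 was higher by 2.39 (8.08 and 6.62 CPM, SE 0.27, adjusted p = 6.89e-11) and Tex11 by 2.90. Dazl, an RNA-binding protein of the germ line, stood at 906 and 809 CPM in Gml-high cells, close to the 1314 and 1001 CPM of Stra8-high cells, and at 207 and 109 CPM in early pachytene cells (2.20, SE 0.26, adjusted p = 4.31e-10). Ccnb3, a cyclin of early prophase, stood at 17.2 and 25.4 against 1.45 and 0.959 CPM.

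Break genes were mixed against early pachytene cells, with 4 higher and 4 lower of 10 and a median of 0.41. Spo11 was lower (170 and 128 CPM in early pachytene cells, -0.86, SE 0.20, edgeR adjusted p = 0.00035), and Mei1 and Ccdc36 were lower in Gml-high cells than in both neighbours. In the pachytene list, Ldhc, Tbpl1, Adam3, Insl6 and Clgn were lower, Pgk2 was higher and 8 of 14 did not pass, Hspa2 among them. In the piRNA list, 6 of 15 were lower and 2 higher. Tdrd6, of the granules where piRNAs act, stood at 46.8 and 31.0 against 174 and 142 CPM (-2.33, SE 0.22, adjusted p = 3.87e-13), while Mov10l1, the helicase that starts pachytene piRNAs, was higher (172 and 140 CPM in early pachytene cells, 0.83, SE 0.20, adjusted p = 0.000698). Among barcodes of 2000 to 10000 UMIs, Mei1 of the break list, Adam3 of the pachytene list, and Tdrd5, Tdrd6, Henmt1 and Btbd18 of the piRNA list passed, and Spo11, Ldhc and Mov10l1 did not.

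**Figure D3:**
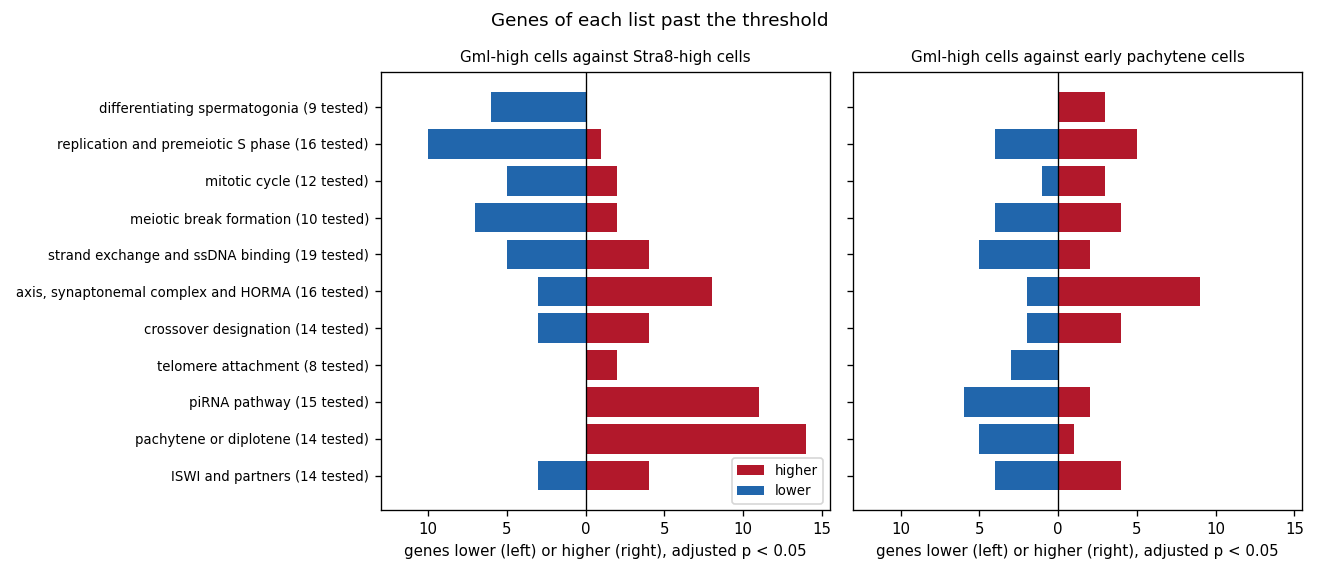
Number of genes in each list that were higher (right, red) or lower (left, blue) in Gml-high cells, against Stra8-high cells in the left panel and early pachytene cells in the right panel. All 14 pachytene genes lie to the right in the first panel, and 9 of 16 axis genes do in the second.

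ISWI genes encode SMARCA5 and the proteins it works with. Against early pachytene cells, 4 of 14 were higher and 4 lower, shares near those over all genes (23.6% and 21.3%), so the list does not stand out. Smarca5 itself stood at 117 and 140 CPM in Gml-high cells and 80.5 and 54.9 CPM in early pachytene cells (0.71, SE 0.21, edgeR adjusted p = 0.00415), and at 300 and 206 CPM in Stra8-high cells, a difference that did not pass (-0.46, SE 0.25, adjusted p = 0.187). Baz1a, the ACF subunit, was lower than in early pachytene cells (243 and 118 against 659 and 414 CPM, -1.90, SE 0.23, adjusted p = 8.26e-10). Chrac1, a histone-fold subunit, was higher than in Stra8-high cells (518 and 769 against 97.6 and 298 CPM) and lower than in early pachytene cells (764 and 1162 CPM). Baz1b, Cecr2 and Rbbp7 were lower than in Stra8-high cells and higher than in early pachytene cells. At 2000 to 10000 UMIs, Rbbp7 and Baz1a were the genes of this list that passed against early pachytene cells.

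The genes that rose most over early pachytene cells were Fmr1nb, Gm364, Prss50, 1700067P10Rik, Pfn3, 1700001P01Rik, Fam209, Tmem210, Slxl1 and Tex29. Prss50, a protease of early germ cells, stood at 37.4 and 113 CPM in Gml-high cells, 203 and 359 CPM in Stra8-high cells and 2.78 and 3.74 CPM in early pachytene cells (4.22, SE 0.28, edgeR adjusted p = 1.03e-17). The X-linked Fmr1nb stood at 49.9 and 86.6 against 2.17 and 2.78 CPM. These 2 and Gm364 were scarce in free RNA, at 7.42 CPM for Prss50, 10.2 for Fmr1nb and 12.1 for Gm364. The other 7 of these 10 genes were not: free RNA held Fam209 and Slxl1 at 310 and 136 CPM, above their 162 and 67.8 CPM in Gml-high cells of sample 1, and likewise the remaining 5. The greatest falls were in Gm41335, Gm20125, 4930581F22Rik, Magi2, Npas3, Kcnc2, Catspere1, Cdh2, 4930578E11Rik and Gm36831. Magi2, a scaffold protein, stood at 301 and 129 CPM against 1626 and 1212 CPM (-3.12, SE 0.28, adjusted p = 8.31e-14).

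Spermatid transcripts moved with the comparison to early pachytene cells, and in some settings with that to Stra8-high cells. The protamine and transition protein genes Prm1, Prm2, Tnp1 and Tnp2 gave 1.34% and 1.03% of all UMIs in Gml-high cells, 0.233% and 0.162% in early pachytene cells and 0.682% and 1.17% in Stra8-high cells. Per cell the median share in Gml-high cells was 0.150% and 0.102%, and 36 and 35 cells held more than 1%. All 9 tested round spermatid markers and 9 of 10 elongating spermatid markers were higher than in early pachytene cells, beside 23.6% of all genes. Against Stra8-high cells, 7 of 9 and 10 of 10 were higher without called doublets, beside 3662 of all 16976 genes. With barcodes over 1% left out, 4 of 9 and 6 of 10 were higher, beside 3364 of 16865. Among barcodes of 2000 to 10000 UMIs, 0 of 9 and 5 of 10 were higher, beside 1502 of 14003. The 10 round spermatid markers summed to 830 and 1230 CPM in Gml-high cells, 105 and 85.3 CPM in early pachytene cells and 488 and 1383 CPM in Stra8-high cells, and none was at 0 in the first 2 of these. The limit of at most 1 Acrv1 UMI bears on early pachytene cells alone. With barcodes over 1% left out of every group, 2955 genes were higher and 3178 lower than in early pachytene cells, and the axis list kept 9 higher and had 1 lower of 16. Of the genes higher than in early pachytene cells, 33.4% stood above their level in free RNA in sample 1, and of the genes lower, 36.0%. The part of spermatid RNA and of free RNA in the differences from either neighbour was not tested.

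Somatic markers were present at low levels. The 14 Sertoli markers summed to 343 and 467 CPM in Gml-high cells against 4480 and 11161 CPM in Sertoli cells and 122 and 182 CPM in early pachytene cells. Of these markers 8 of 10 tested were higher than in early pachytene cells, beside 23.6% of all genes. The count was 6 of 10 with barcodes over 1% protamine and transition protein UMIs left out, and 1 of 7 at 2000 to 10000 UMIs. It was 1 of 8 when cells were chosen and counted on separate parts of their UMIs. Sox9 was at 0 in sample 1. The 8 Leydig markers summed to 364 and 1481 CPM, and 5 of 8 were higher than in Stra8-high cells (67.6 and 544 CPM), beside 13.7% of all genes. The sum was 218 and 1227 CPM in early pachytene cells. The 8 macrophage markers summed to 210 and 138 CPM, against 15.0 and 66.0 CPM in Stra8-high cells and 39.6 and 117 CPM in early pachytene cells. Their part in the differences was not tested.

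In X-linked share Gml-high cells stood between their neighbours, and many genes off the X chromosome did so too. Of 17424 genes, 1212 were higher than in Stra8-high cells and lower than in early pachytene cells, 0 of them X-linked. The other way round, 566 were lower than in Stra8-high cells and higher than in early pachytene cells, 154 of them X-linked. X-linked genes gave 0.588% of UMIs in sample 1 (95% interval 0.575 to 0.601%) and 0.813% in sample 2 (0.804 to 0.823%). The share was 2.34% and 1.98% in Stra8-high cells and 0.107% and 0.118% in early pachytene cells, so both samples of Gml-high cells lay apart from both samples of each neighbour. Of 545 tested X-linked genes, 425 (78.0%) were higher than in early pachytene cells and the other 120 did not pass, with a median of 2.63; 1 X-linked gene was lower at an unadjusted p under 0.05. On autosomes, 21.5% of 15558 genes were higher and 22.1% lower. Against Stra8-high cells, 201 X-linked genes were lower (36.9%) and 12 higher, with a median of -1.11, beside 10.8% lower and 14.7% higher on autosomes. Without called doublets, 45 X-linked genes were higher and 207 lower of 523. On the Y chromosome 19 of 29 genes were higher than in early pachytene cells.

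Free RNA held 0.924% X-linked UMIs, more than Gml-high cells of either sample. Of the 425 X-linked genes higher than in early pachytene cells, 157 stood above their free RNA level in sample 1. Prdx4, a peroxiredoxin of the secretory pathway, stood at 212 and 318 CPM in Gml-high cells, 368 and 612 CPM in Stra8-high cells, 24.1 and 28.1 CPM in early pachytene cells and 214 CPM in free RNA. Tsga8 and Cypt1, genes of spermatids, stood at 188 and 209 CPM in sample 1 and at 361 and 276 CPM in free RNA. Next, only barcodes of 2000 to 10000 UMIs with at most 1% protamine and transition protein UMIs were kept. The X-linked share was then 0.325% and 0.652% in Gml-high cells, 2.34% and 2.17% in Stra8-high cells and 0.0975% and 0.148% in early pachytene cells. Median depth still differed, at 4070 and 3549 UMIs in Gml-high cells and 7897 and 5222 in early pachytene cells. The part of depth in the difference was not tested. At 2000 to 10000 UMIs, 186 of 419 X-linked genes tested were higher than in early pachytene cells.

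Cells within the group differed widely in X-linked share. The median cell had 0.258% in sample 1 and 0.409% in sample 2, with a 10th to 90th percentile range of 0.0489 to 1.42% and 0.0759 to 2.39%. Under 0.5% lay 61.9% and 55.6% of Gml-high cells and 95.8% and 93.6% of early pachytene cells. In Stra8-high cells the 10th percentile was 1.81% and 1.49%. The cells were split after these values were seen by which markers gave most of their marker UMIs. In 63 and 207 cells Rad51ap2, Meiob and Mnd1 together gave at least as many UMIs as Gml and Gml2, in 127 and 294 Gml and Gml2 gave more but not all, and in 70 and 103 they gave all. The median X-linked share was 0.780% and 1.16% in the first set, 0.251% and 0.287% in the second and 0.112% in both samples of the third. Median depth moved with the sets, at 2588 and 2592, 3946 and 3927, and 4458.5 and 5744 UMIs, and its part in the share was not tested.

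**Figure D4:**
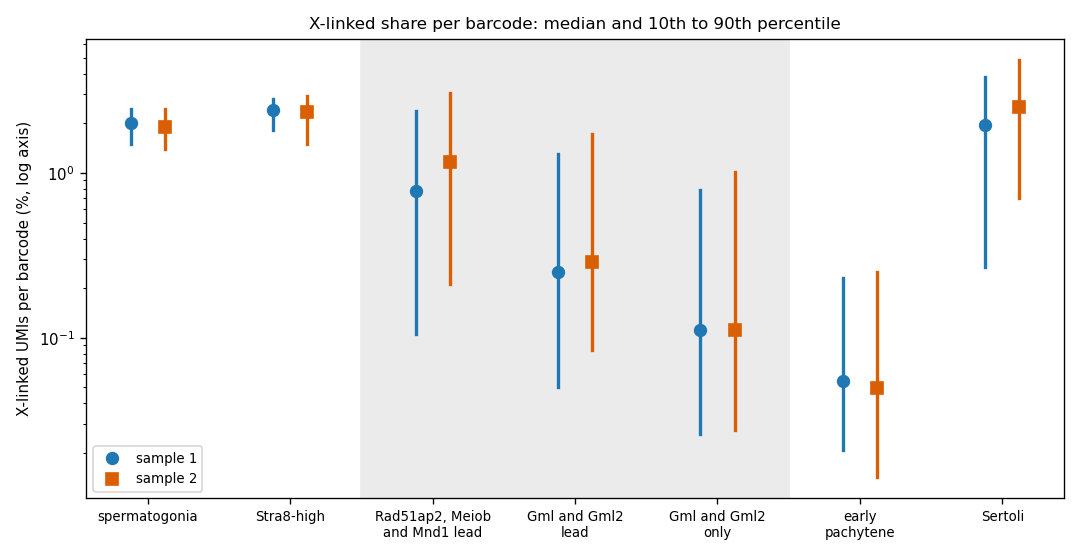
Percent of X-linked UMIs per barcode on a log axis, in 7 groups including spermatogonia and Sertoli cells, with the median as a point and the 10th to 90th percentile as a line, for each sample. The 3 sets of Gml-high cells (grey band) run from medians of 0.780% and 1.16% to 0.112%, between Stra8-high cells (2.40% and 2.32%) and early pachytene cells (0.0546% and 0.04998%).

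The same sets ordered some other genes, as a description with no test. Sycp3 stood at 2525 and 2823 CPM in the first set, 1925 and 2225 CPM in the second and 1221 and 957 CPM in the third. Dmc1 stood at 77.1 and 135, 25.7 and 40.7, and 7.27 and 7.27 CPM. Tex15 stood at 85.2 and 141, 32.1 and 23.9, and 17.0 and 6.05 CPM. Ldhc ran the other way, at 2590 and 2745, 3135 and 3734, and 5918 and 6840 CPM, the last near the 6247 and 8096 CPM of early pachytene cells. Hspa5, a chaperone of the endoplasmic reticulum, stood at 1628 and 2180 CPM in the first set and 354 and 398 CPM in the third. In each of these 5 genes, picked from many, both samples kept the same order of sets, which supports nothing about other genes. Mrpl3 kept no common order, at 142 and 162, 176 and 170, and 167 and 138 CPM. Trp63, a p53 relative that guards germ cells, stood at 28.4 and 25.0 CPM in the first set and 2.42 and 3.63 CPM in the third, and no UMI of it was found in Stra8-high cells. Over all Gml-high cells it was at least 2.34-fold higher than in those by the floor of 3 UMIs, and higher than in early pachytene cells by 1.88 (10.9 and 14.8 against 3.50 and 2.78 CPM, SE 0.39, edgeR adjusted p = 8.89e-05).

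Inside the group, the few UMIs of Stra8 and Piwil1 that the rule allows gave a second split. Of the Gml-high cells, 4 and 8 had 1 Stra8 UMI and no Piwil1 UMI, 96 and 189 had 1 Piwil1 UMI and no Stra8 UMI, and 159 and 405 had neither. Between the Stra8 side and the Piwil1 side, 39 of 8584 genes were higher (0.454%) and 27 lower (0.315%), 0.769% in all, and the calls rest on 12 cells, each placed by 1 UMI of a gene that the rule limits. Of these 66 calls, 22 remained with RLE scaling and 26 without the sample as a block. Ccnb3 was higher on the Stra8 side, at 37.3 and 462 CPM against 1.72 and 4.79 CPM (5.41, SE 0.90, edgeR adjusted p = 0.000335), which is 1 and 12 UMIs on that side. Other genes higher there were Swap70, Ugt8a, Kdm6a, Suv39h1 and Stxbp5l; Suv39h1, an X-linked histone methyltransferase, stood at 112 and 115 against 1.72 and 2.05 CPM, with 3 UMIs on the Stra8 side of each sample. The spermatid genes Rnf151 and Cypt4 gave no UMI on the Stra8 side, which held 26827 and 25988 UMIs in all. They stood at 196 and 569 CPM and at 216 and 410 CPM on the Piwil1 side. Neither gene is particular to that side. Stra8-high cells held Rnf151 at 188 and 594 CPM and Cypt4 at 293 and 480 CPM, and free RNA held them at 591 and 584 CPM. The part of free RNA in these calls was not tested.

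Cells with neither gene were set against the Piwil1 side in a contrast added after the Stra8 side proved small. There 28 genes were higher (0.326%) and 3 lower (0.0349%), 0.361% in all, with 10 of the 28 on the X chromosome out of 160 X-linked genes tested. The X-linked Ssr4, of protein export, stood at 88.1 and 171 CPM against 15.46 and 46.5 CPM (1.94, SE 0.37, edgeR adjusted p = 0.0108), and Usp26 at 56.8 and 96.1 against 24.0 and 17.1 CPM (1.91, SE 0.41, adjusted p = 0.0286). No gene passed with another scaling, with DESeq2 or without the sample as a block, where 712, 537 and 474 genes had an unadjusted p under 0.05. Median depth was 3342 and 3012 UMIs with neither gene and 4575.5 and 4783 on the Piwil1 side, and its part in these calls was not tested.

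160 genes were higher in Gml-high cells than in both neighbours, 12 of them X-linked. Both comparisons share the sums of the Gml-high cells, so this number is a description of the set. The genes given here were picked from it after their values were seen. In sample 1, 87 of the 160 stood above their free RNA level and 73 did not, spermatid genes such as Lelp1 (86.6 against 206 CPM) among them. Tafa1, a secreted factor, stood at 49.1 and 70.6 CPM, against 7.51 and 5.28 CPM in Stra8-high cells (3.76, SE 0.62, edgeR adjusted p = 4.41e-06) and 6.88 and 4.51 CPM in early pachytene cells (3.19, SE 0.28, adjusted p = 1.98e-14). Gnas, a G protein subunit, stood at 142 and 161 CPM, against 22.5 and 37.0 and 29.2 and 35.1 CPM. Atp6v0b, of the proton pump of acidic organelles, stood at 299 and 511 CPM, against 113 and 219 and 49.1 and 53.5 CPM. Calr, a chaperone of the endoplasmic reticulum, stood at 798 and 865 CPM, against 338 and 293 and 340 and 225 CPM. Both samples of Gml-high cells lay above both samples of each neighbour in these 4 genes. In free RNA Tafa1 stood at 16.7, Gnas at 91.8, Atp6v0b at 31.5 and Calr at 209 CPM.

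The marker sum chose the cells, so likeness to it is a description that supports nothing. The genes most like the 5 markers, by Pearson's r between log2(CPM + 1) of the gene and of the marker sum over 8 values (4 groups in 2 samples), were Mrpl3 (r = 0.996), Klhl7 (0.988), Pigk (0.987), Swi5 (0.984), Hdac3 (0.984), Tex30 (0.983), Vapa (0.983), Fam92a (0.976), Arl6ip1 (0.975) and Ccdc61 (0.970), among 3944 genes. The 8 values share 2 libraries. The 4 groups are those of the edgeR fit, whose spermatogonia group was chosen on Dmrtb1 too and turned out to hold spermatids. Swi5, which acts in strand exchange, stood at 1114 and 1311 CPM, against 405 and 562 CPM in Stra8-high cells and 772 and 797 CPM in early pachytene cells.

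Of the 160 genes, 135 had an annotated start in the RefSeq promoter table, which was set against the authors' ATAC peaks. A peak lay within 500 bases of the start for 72.2% ± 4.71 (SD, n = 2) of the 135 in cKIT+ wild type, 77.04% in both cKIT+ cKO libraries, 74.8% ± 1.05 (SD, n = 2) in 4C wild type and 75.2% ± 0.524 (SD, n = 2) in 4C cKO. The shares over 12811 tested genes with a start were 77.5%, 82.2%, 79.4% and 80.8%. The sorted libraries hold many cell stages and none is Gml-high cells alone. A peak was gained in cKO, called in each cKO library and in no wild type one, at 4 of the 135 in cKIT+ cells (2.96%, beside 1.09% of all 12811): BC048507, Kcnh8, Lrrc37a and Vsig1. A cKIT+ peak lost in cKO was at none of the 135 (0.0937% of all). In 4C cells a peak was lost at 4930505O20Rik (0.336% of all) and gained at none (0.898% of all). With 2 libraries a group no exact test can pass the threshold of 0.05, so these counts carry no test.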

How the data were processed

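Single-cell transcripts were measured in 2 cKO testis samples (10x 3′ v3.1), and accessible chromatin in 8 sorted libraries. The matrices deposited by the authors give unnormalized UMI counts, from Cell Ranger 7.1.0 (sample 1) and 9.0.1 (sample 2) per the file headers; Seurat 4.1.0 is named in the submitters' processing notes without its role. Total counts were 63605819 over 987771 listed barcodes and 115830234 over 17744. Peaks were called per library by the authors with MACS2 on mm10, per the submitters' processing notes; the authors' files give a score per peak, its fold over local background and −log10 p and q, and no reads, so depth is unknown.

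Barcodes needed at least 1000 UMIs, 500 genes and at most 10% mitochondrial UMIs. Doublets were called with Scrublet in scanpy 1.11.5 (0.8% expected per 1000 barcodes) and kept unless stated. UMIs were summed per sample and group; 4 groups (Stra8-high, Gml-high, early pachytene, and a spermatogonia group of at least 4 UMIs of Sohlh1, Uchl1, Crabp1, Rhox13 and Dmrtb1) entered 1 edgeR 4.0.16 fit (glmQLFit, glmQLFTest, TMM, filterByExpr, sample as block), with Benjamini-Hochberg adjustment over all genes tested. The spermatogonia group turned out to hold spermatids through Dmrtb1 (1190 and 2868 cells); it stays in the fit, and spermatogonia are described without Dmrtb1 (51 and 141 cells). The sample is a block because groups of 1 sample come from 1 suspension. Each SE is the size of the log2 difference divided by the square root of the quasi-likelihood F statistic. It is therefore derived from the test and adds no separate evidence to the p-value. CPM scales a group's UMIs to an equal total; 3′ counts were not divided by gene length, so levels are compared between cells and not between genes. In simulated counts for the Stra8-high comparison (17440 genes), 13% of genes changed 2-fold and 38% of those changed 4-fold were recovered, with 1 false call; for the Stra8 side (8596 genes), 0% and 21%, with 2. The simulated counts came from 1 profile shared by all groups, with 1 spread for all genes and no sample effect. The data differ in these respects, so the rates and the false calls need not hold for the calls reported here.

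The members and gene lists were chosen with earlier results of these data known. Genes were named by a rule: past adjusted p 0.05, the same direction in both samples, at least 50 CPM in the higher group, then the 10 greatest rises and 10 falls per comparison (6 and 6 inside the group), with list members past the threshold. Alternatives were RLE scaling, DESeq2 1.42.0, no filter, no block, doublets removed, marker sums of 3 and 6, depth of 2000 to 10000 UMIs, and gating on a random 50% of the UMIs with counting on the rest; leaving out protamine-rich barcodes and Dmrtb1 was added after seeing the data.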

Additional observations from a re-analysis of the deposited data

How the results depend on the processing

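Each group contributes 1 sum per sample, and the block takes out what the groups of a sample share. The p-values therefore rest on how far group differences vary between the 2 samples, estimated over all groups of a fit. In the comparisons with the neighbours these include the spermatogonia group with Dmrtb1. Leaving out a sample allows values and no test for genes. The share of Gml-high cells, 3.72% as a mean, was 2.34% at a marker sum of 6, 5.18% at 3, 5.10% at 2000 to 10000 UMIs and 3.21 to 4.24% with each sample left out. Their X-linked share, 0.701%, was 0.501% at most 1% protamine UMIs and 0.588 to 0.813% with each sample left out. Against Stra8-high cells the 2390 higher genes were 1379 with no replicate block, 3662 without doublets and 1502 at 2000 to 10000 UMIs. The median over all genes moved from 0.27 to 0.64 without doublets and 0.54 at most 1% protamine UMIs. Against early pachytene cells the 4116 higher genes were 879 at 2000 to 10000 UMIs and 2740 without Dmrtb1 in the spermatogonia group. The 3704 lower genes were 1832 with no replicate block, 2206 when gates and counts came from separate parts of the UMIs, 967 at 2000 to 10000 UMIs and 2138 without Dmrtb1. Of the 7820 calls, 1811 kept their direction and passed at 2000 to 10000 UMIs, where 14003 genes were tested on fewer cells. The samples pair the groups by suspension, which is why the block is in the fit.

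On the Stra8 side the 39 higher genes were 18 with RLE scaling, 124 with DESeq2, 16 with no replicate block, 79 at a marker sum of 6 and 232 at 3; the 27 lower were 4 with RLE scaling, 57 with no filter, 10 with no replicate block, 17 without doublets, 402 at 6 and 212 at 3. Between cells with neither gene and the Piwil1 side the 28 higher were 0 with RLE scaling, DESeq2 or no replicate block, 59 at 6 and 189 at 3; the 3 lower were 0 in the same settings, 12 without doublets, 84 at 6 and 99 at 3. The cause was not tested. The share of the 135 genes with a peak at −log10 q of at least 5 was 55.6% in cKIT+ wild type, 63.7% in cKIT+ cKO, 63.0% in 4C wild type and 61.5% in 4C cKO, and within 1000 bases 80.0% in cKIT+ cKO, 75.9% in 4C wild type and 76.7% in 4C cKO. With each library left out it ran from 68.9 to 75.6% in cKIT+ wild type, stayed at 77.04% in cKIT+ cKO, and ran from 74.1 to 75.6% in 4C wild type and 74.8 to 75.6% in 4C cKO. The 61 rises and falls named by size kept their direction under the alternatives run, and 49 of 702 values lost the threshold. The 702 include the values with each sample left out. The naming rule fixed the direction of those, and they carry no test, so they could not lose the threshold. Of 252 other calls of list genes and genes given by name, 380 of 3254 values lost the threshold, where the 3254 again include untested values with each sample left out. Without the replicate block, 38 calls against Stra8-high cells and 54 against early pachytene cells lost it. Calls that turned were Psmc3ip against early pachytene cells at 2000 to 10000 UMIs (0.070), and Cd74 against Stra8-high cells (-0.22) and C1qa against early pachytene cells (-0.39) when gates and counts came from separate parts of the UMIs. With each sample left out, the log2 difference from early pachytene cells ran from -0.053 to 1.96 for Apoe, -0.89 to 2.80 for Lyz2, -6.93 to 0.42 for Hbb-bs and -0.35 to 1.93 for Mcm4, and that from Stra8-high cells from -2.89 to 4.21 for Acta2. The cause of these turns was not tested either.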
